A study of Mus musculus with 6 samples.

Results

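The 9 genes described here encode transcription factors that set region along the gut or subtype among enteroendocrine cells, the hormone-producing cells of its lining. They are Cdx1, Cdx2, Pdx1, Gata4, Gata6, Etv1, Lmx1a, Pax4 and Mnx1, chosen by name from the 54281 genes of the table, and all 9 were found in it. Their levels were read in GLUTag cells, a murine enteroendocrine line that secretes GLP-1 and that comes from an intestinal tumour of a mouse whose oncogene was driven by the proglucagon promoter. There were 6 libraries of polyadenylated RNA, each from cells grown on Matrigel for 48 h in DMEM with 1 g/L glucose and 10% serum (FBS), with no treatment. Plate 1 held replicates 1 to 3 at passage 23 and plate 2 held replicates 4 to 6 at passage 27, so the effects of plate and of passage cannot be told apart, and only 2 cultures stand behind the 6 libraries. A p-value below therefore measures the spread between these libraries and not between independent lines.

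Region along the gut is set early by homeobox and GATA factors. Cdx1 and Cdx2 are caudal-type homeobox proteins of the hindgut and of the intestinal epithelium after it, Pdx1 is the homeobox factor of the duodenum and pancreas, Gata4 is a zinc finger factor of the proximal small intestine, and Gata6 is its relative found along the whole intestine. The other members act in endocrine cells: Etv1 is an ETS factor present in enteroendocrine cells, Lmx1a is a LIM homeodomain factor needed for serotonin synthesis in enterochromaffin cells, Pax4 is a paired box factor of serotonin, somatostatin and insulin cells, and Mnx1 is a homeobox factor of beta cells and motor neurons. Cdx2 is also known to bind the promoter of Gcg, the gene for proglucagon, from which GLP-1 is cut.

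The promoters of that target gene, of the neighbouring members Cdx2 and Pdx1, and of Lmx1a, a member near 0 in these cells, are shown for the core letters that homeodomain proteins read. They are RefSeq sequences on GRCm38.p6, 5′ to 3′ on the strand of the gene, from 250 bases before to 50 bases after the start, and 5 of the 9 members had an entry. Capitals mark ATAAA or its reverse complement TTTAT, the core of the Cdx site, in Gcg (chr2:62483604-62483903, minus strand), and TAAT or its reverse complement ATTA, the general homeodomain core, in Cdx2 (chr5:147307200-147307499, minus strand), Pdx1 (chr5:147269847-147270146, plus strand) and Lmx1a (chr1:167689308-167689607, plus strand).
Gcg: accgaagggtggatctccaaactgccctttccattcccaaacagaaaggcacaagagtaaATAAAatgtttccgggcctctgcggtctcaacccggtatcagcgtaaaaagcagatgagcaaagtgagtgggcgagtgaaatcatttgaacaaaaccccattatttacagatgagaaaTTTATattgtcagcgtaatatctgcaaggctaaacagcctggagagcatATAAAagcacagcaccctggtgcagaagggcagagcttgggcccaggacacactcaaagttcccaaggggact
Cdx2: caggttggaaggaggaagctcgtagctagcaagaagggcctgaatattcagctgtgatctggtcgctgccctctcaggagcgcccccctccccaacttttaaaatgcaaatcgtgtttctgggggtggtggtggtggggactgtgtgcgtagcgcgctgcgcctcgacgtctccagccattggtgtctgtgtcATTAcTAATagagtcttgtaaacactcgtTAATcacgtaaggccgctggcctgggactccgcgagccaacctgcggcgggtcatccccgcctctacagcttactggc
Pdx1: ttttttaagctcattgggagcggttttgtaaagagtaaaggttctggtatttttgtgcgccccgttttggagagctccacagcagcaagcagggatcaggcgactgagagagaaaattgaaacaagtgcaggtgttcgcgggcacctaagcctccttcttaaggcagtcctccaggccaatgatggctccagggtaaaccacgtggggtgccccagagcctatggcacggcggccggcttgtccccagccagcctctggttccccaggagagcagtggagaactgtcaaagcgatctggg
Lmx1a: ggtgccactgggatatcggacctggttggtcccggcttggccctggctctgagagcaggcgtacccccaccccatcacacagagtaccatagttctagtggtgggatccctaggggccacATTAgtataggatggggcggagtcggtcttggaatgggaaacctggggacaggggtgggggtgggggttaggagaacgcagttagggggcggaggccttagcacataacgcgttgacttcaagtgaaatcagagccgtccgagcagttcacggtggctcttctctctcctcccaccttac
The Gcg window held the Cdx letters at 3 places, which began 190, 72 and 23 bases before the start, and the one nearest the start lies within TATAAA. It also held TAAT or ATTA at 2 places. The Cdx2 window held TAAT or ATTA at 3 places, 57, 52 and 28 bases before the start, the Lmx1a window at 1 place, 130 bases before it, and these letters were not in the Pdx1 window. Of 32851 promoter windows of 300 bases, 40.0% held the Cdx letters and 58.0% held the homeodomain core, so a match is a description of the sequence and not a site. The GC content was 47.0% in the Gcg window and between 44.0% (one of 2 Etv1 starts) and 66.3% (Mnx1) in the 6 windows of the 5 members with an entry, against a median of 52.7% over all windows. The number of CpG dinucleotides was 7 in Gcg and between 3 and 26 in the same member windows, against a median of 7.

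Levels are given in CPM, the counts of a gene per 1e6 counts of its library. Each count comes from the 3′ end of a transcript, so CPM was compared between genes with no term for gene length. How well the reads of each gene were captured and assigned to it can also differ between genes. This was not tested, so a fold between genes is one of counts and only an approximate one of transcripts. The total was between 21399987 and 36488198 counts per library. Which plate 2 column belongs to which of replicates 4 to 6 is not known, and these 3 libraries are called by their total: lowest, middle or highest. Where no count was seen, a true value of up to 3 counts is possible, equal to 0.0822 CPM in the deepest library and 0.140 CPM in the shallowest, a limit that covers counting error only because the reads carry no molecular identifiers. The middle-total library of plate 2 stood apart: of 5031 genes whose mean reached 30 CPM, 354 were over 2-fold lower in it than in the rest of its plate, against 0 to 3 genes in each other library. In the highest-total library of plate 2, 49 of these genes were over 2-fold higher, against 0 to 4 in each other library. The line's label was checked on 10 markers of L cells and enteroendocrine cells, of which 9 had more than 3 counts in every library, led by Gcg (3416 ± 771 CPM, SD, n = 6), the peptide hormone gene Cck (1080 ± 277 CPM) and the granule protein gene Chgb (555 ± 92.0 CPM). The exception was Pyy, a hormone gene of distal L cells, with 2 to 17 counts.

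Of the 9 members, 5 had more than 3 counts in every library: Etv1, Cdx2, Mnx1, Pdx1 and Gata4. The same held for 28.1% of all genes of the table and for 58.4% of its protein-coding genes. Pax4 passed that limit in 5 of 6 libraries, Lmx1a in none, and both Cdx1 and Gata6 were at 0 in every library. In this bulk RNA a low level in all cells and a higher level in few cells cannot be told apart. The plot of all members by library shows the 5 detected genes between 16.5 and 266 CPM and the other 4 below 1.5 CPM.

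**Figure D1:**
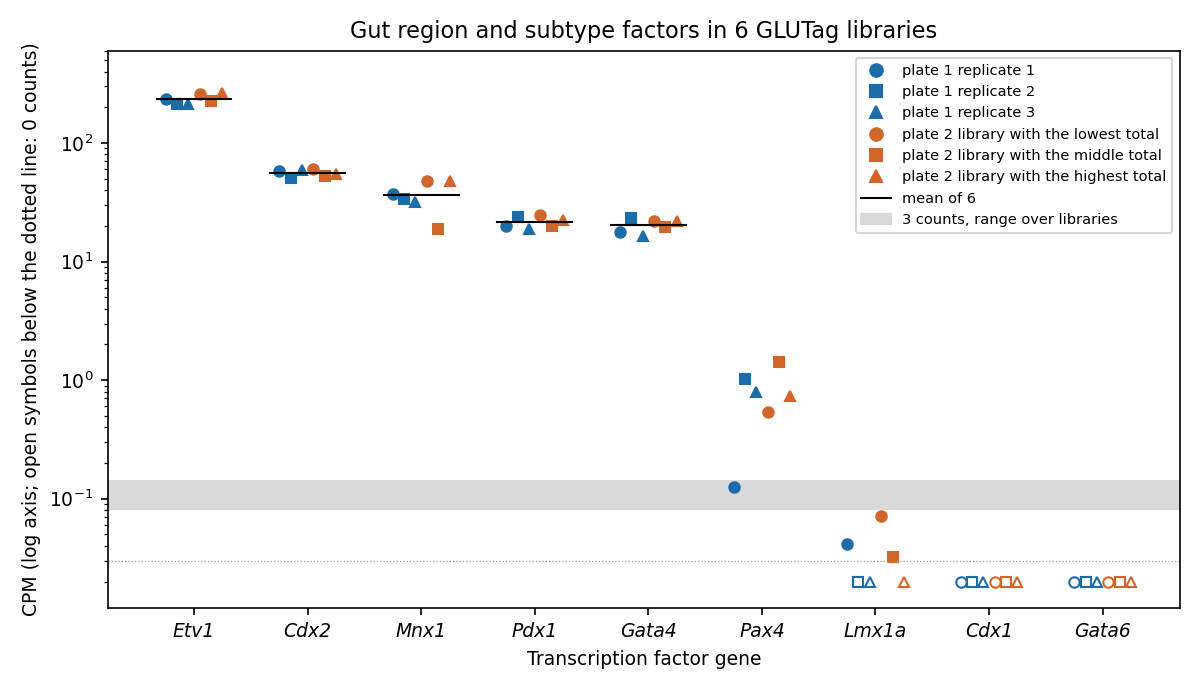
CPM of each member (log axis) in each of the 6 libraries, with the mean as a bar for the 5 members above 3 counts throughout and the range of 3 counts over the libraries as a grey band. Etv1 lies highest at 214 to 266 CPM, Mnx1 has its lowest point, 18.9 CPM, in the middle-total library of plate 2, and the open symbols of Cdx1, Gata6 and part of Lmx1a stand for 0 counts.

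Cdx2 was the region factor with the highest level, at 56.0 ± 3.87 CPM (SD, n = 6 libraries). Cdx2 (ENSMUSG00000029646, GRCm38 chromosome 5, 147300805 to 147307270, minus strand) had 58.3, 50.3 and 59.3 CPM in replicates 1, 2 and 3 of plate 1 and 60.1, 53.2 and 55.0 CPM in the plate 2 libraries with the lowest, middle and highest total. The plates overlapped and no library lay apart. Its coefficient of variation was 6.91%, and of 3737 genes within 2-fold of its level 3.10% varied less, with a median of 17.6%. Cdx1 (ENSMUSG00000024619), the paralog with an overlapping role in the intestine, had 0 counts in each library, so Cdx2 was at least 379-fold higher, taken in the library with the fewest Cdx2 counts (1138) against 3 counts. The related Cdx4 was at 0 as well.

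Pdx1 and Gata4, both factors of the upper gut, were found at nearly one level below Cdx2. Pdx1 (ENSMUSG00000029644, chromosome 5, 147269959 to 147275848, plus strand) had 19.8, 23.9 and 18.8 CPM on plate 1 and 24.7, 19.8 and 22.6 CPM on plate 2, with a mean of 21.6 ± 2.44 CPM (SD, n = 6). Gata4 (ENSMUSG00000021944, chromosome 14, 63198922 to 63271692, minus strand) had 17.8, 23.4 and 16.5 CPM on plate 1 and 22.1, 19.6 and 22.0 CPM on plate 2, with a mean of 20.3 ± 2.71 CPM (SD, n = 6). Both genes were highest among the plate 1 libraries in replicate 2, and their ranges overlapped between plates. Gata6 (ENSMUSG00000005836) had 0 counts in each library, and Gata4 was at least 118-fold higher, with 354 counts in the lowest library set against 3 counts. An antisense gene, Plut, overlaps Pdx1 and had 0 to 3 counts, and the processed transcript 1010001N08Rik opposite Gata6 had 0.

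Among the subtype factors, Etv1 was the highest of all members at 235 ± 22.0 CPM (SD, n = 6), rank 674 among all genes of the table. Etv1 (ENSMUSG00000004151, chromosome 12, 38779380 to 38870484, plus strand) had 233, 214 and 215 CPM on plate 1 and 258, 226 and 266 CPM on plate 2. It made up 61.8% to 66.7% of the summed CPM of the 9 members in each library. Mnx1 (ENSMUSG00000001566, chromosome 5, 29473034 to 29478470, minus strand) had 37.1, 33.7 and 31.8 CPM on plate 1, and 47.6, 18.9 and 47.7 CPM on plate 2. Its lowest value was thus in the middle-total library of plate 2, at 0.396 times the rest of its plate, where Cdx2 stood at 0.924, Etv1 at 0.862, Gata4 at 0.890 and Pdx1 at 0.837. The mean of Mnx1 was 36.1 ± 10.9 CPM (SD, n = 6), or 39.6 CPM without that library, and 87.8% of 4359 genes within 2-fold of its level varied less over the 6 libraries. Without it the coefficient of variation of Mnx1 was 19.3%, beside a median of 18.7% for those genes over all 6.

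Pax4 and Lmx1a were at or near the limit of detection. Pax4 (ENSMUSG00000029706, chromosome 6, 28442334 to 28449353, minus strand) had 3, 23 and 17 counts on plate 1 and 15, 44 and 27 counts on plate 2, or 0.772 ± 0.438 CPM (SD, n = 6). Its highest value was in the middle-total library of plate 2, in which Mnx1 was lowest. Lmx1a (ENSMUSG00000026686, chromosome 1, 167689237 to 167848741, plus strand) had 1, 0 and 0 counts on plate 1 and 2, 1 and 0 on plate 2, which is under 3 counts throughout and was not separated from absence at this depth.

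The difference between a pair of members was the log2 ratio of their CPM + 1 in the same library, and all 36 pairs were tested by exact permutation, in which the sign of the difference is flipped in every combination of the 6 libraries (two-sided), and the p-values of the 36 were adjusted by Benjamini-Hochberg. The smallest p this test can give is 0.03125, or 0.03629 adjusted, and 31 pairs reached it. Libraries of one plate share a culture, which the test does not take into account. For the 26 pairs with a member that was not above 3 counts throughout, the test shows little more than which gene was detected, and 8 of the other 10 pairs were past 0.05.

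In the order of levels, Etv1 exceeded Cdx2 by 2.05 ± 0.13 (log2, SD, n = 6), between 3.63-fold and 4.83-fold in single libraries. Cdx2 exceeded Mnx1 by 0.68 ± 0.45, in 6 of 6 libraries, from 1.15-fold in the highest-total library of plate 2 to 2.82-fold in its middle-total library. Both pairs had an adjusted exact permutation p of 0.03629, and without the middle-total library Cdx2 exceeded Mnx1 by 0.52. Mnx1 and Pdx1 were not separated: Mnx1 was higher by 0.66 ± 0.41 in 5 of 6 libraries (adjusted exact permutation p = 0.0682), with the middle-total library of plate 2 as the exception. Without that library the difference was 0.81, and the exact permutation test cannot pass its threshold with 5 libraries. The same library was the exception between Mnx1 and Gata4 (0.75 ± 0.45, adjusted exact permutation p = 0.0682, and 0.92 without it). Pdx1 was above Gata4 in 6 of 6 libraries (adjusted exact permutation p = 0.03629), but by 0.09 ± 0.07 (log2, SD, n = 6), or 1.01-fold to 1.14-fold. Of the counts of these 2 genes together Pdx1 took 50.2% to 53.2%, and its 95% binomial interval (Wilson) lay above 50% in 1 of 6 libraries. That interval covers counting error only, since the reads carry no molecular identifiers. Cdx2 over Pdx1 was 1.34 ± 0.20, from 2.11-fold in replicate 2 of plate 1 to 3.16-fold in replicate 3. At the low end, Pax4 was above Lmx1a by 0.75 ± 0.39 in 6 of 6 libraries, a scale on which low levels are compressed by the pseudocount, while Lmx1a did not separate from Cdx1 or Gata6 (higher in 3 of 6 libraries, exact permutation p = 0.25, adjusted 0.257).

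Pdx1 and Cdx2 lie in the ParaHox cluster with Gsx1, a homeobox gene of the nervous system, and their starts are 37.3 kb apart on opposite strands. Gsx1 had at most 1 count in a library. Between Pdx1 and Cdx2, the lincRNA Gm27033 had 1.29 ± 0.470 CPM (SD, n = 6) and Mir7k had 0 counts. On the other side of Cdx2, Urad, an enzyme gene of urate breakdown, had 0.512 ± 0.238 CPM and Flt3, a receptor gene of blood progenitors, had 0 counts. The next gene at a level like that of Pdx1 was Pan3, an mRNA deadenylation gene whose start is 123 kb from that of Cdx2, at 29.6 ± 9.16 CPM. Within 150 kb of the Cdx2 start, the other genes were thus low or at 0, apart from Pan3. Several of them are pseudogenes or small RNA genes. Over the whole table only 28.1% of genes had more than 3 counts in every library, so low neighbours are not particular to this window.

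**Figure D2:**
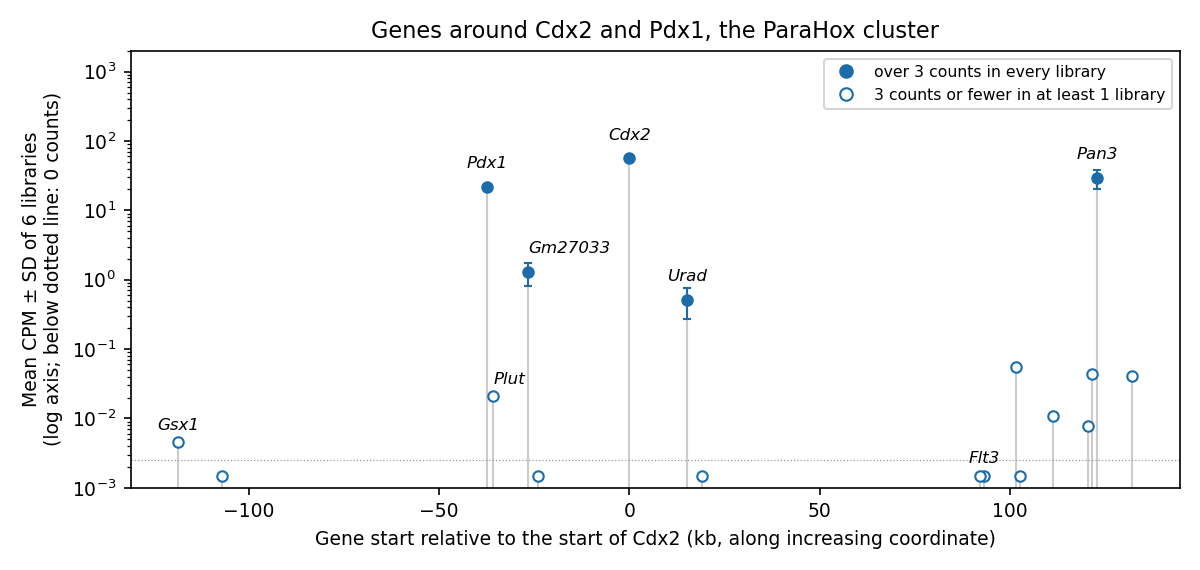
Mean CPM ± SD of 6 libraries (log axis) for the 18 genes of the table that start within 150 kb of the start of Cdx2, by distance in kb. Cdx2 (56.0 CPM), Pan3 (29.6 CPM) and Pdx1 (21.6 CPM) are the only genes above 2 CPM, and open points below the dotted line had 0 counts.

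The relatives of the members from the same gene families were 18 genes, of which 7 had more than 3 counts in every library (38.9%, beside 58.4% of protein-coding genes). Pax6, a factor of alpha and enteroendocrine cells known to act on Gcg, was at 208 ± 22.4 CPM, far above its relative Pax4. Etv5 was at 141 ± 25.0 CPM and Etv4 at 17.9 ± 2.07 CPM, so that all members of the PEA3 group of ETS factors were detected, with Etv1 above Etv5 by 1.32-fold to 2.05-fold in single libraries. Lower were the other relatives above the limit: Gata2 at 1.39 and Gata3 at 1.56 CPM, Pax5 at 7.07 CPM, and Lmx1b, the paralog of Lmx1a, with 17 to 67 counts. Gata1, Gata5 and Gsx1 had at most 2 counts in a library.

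Among 19 other region and epithelial factors 11 were above 3 counts in every library, or 57.9%, near the 58.4% of all protein-coding genes. Onecut2, a homeobox factor of the liver and gut, had 48.4 ± 7.10 CPM, Klf5, a factor of the proliferating epithelium, 42.9 ± 6.20 CPM, and the pioneer factor Foxa1 37.2 ± 10.3 CPM. Sox2, Onecut1, Isx, Sox9 and Sox17 were at 0 in all 6 libraries, among them the stomach factor Sox2 and the progenitor factor Sox9. Of 17 other enteroendocrine and islet factors 16 were above 3 counts throughout, led by Neurod1 (617 ± 89.3 CPM), Isl1 (517 ± 28.5 CPM) and Runx1t1 (335 ± 48.1 CPM), and the exception was Neurog3, the factor of early endocrine progenitors, at 0. The median level was 40.7 CPM for these 17 genes, 0.820 CPM for the region factors, 0.0243 CPM for the family relatives and 20.3 CPM for the 9 members, against 2.61 CPM for all protein-coding genes.

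Partner proteins of the members were above 3 counts throughout for 11 of 15 genes (73.3%, beside 58.4% of protein-coding genes). Among these the corepressor gene Tle1 had 83.7 ± 17.3 CPM. Ldb1, whose protein binds LIM domains, had 29.0 ± 13.6 CPM and was at 2.88 CPM in the middle-total library of plate 2, without which its mean was 34.2 CPM. The partners of GATA factors, Zfpm1 and Zfpm2, had 0.566 and 4.73 CPM. Ldb2, Pbx3, Meis1 and Meis2 were the 4 that missed the limit.

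Genes known from other work as targets were read beside each factor, as levels without a test. Of all protein-coding genes 58.4% were above 3 counts in every library. For Cdx2, 3 of 7 were above 3 counts in every library: Gcg, the cadherin gene Cdh17 (7.24 ± 2.46 CPM) and the brush border gene Vil1 (2.13 ± 0.735 CPM), while Muc2, Sis and Lct had at most 7 counts and Heph had 0. For Pdx1, the islet factors Mafa (148 ± 24.0 CPM) and Nkx6-1 (27.7 ± 4.45 CPM) were above it. Ins1, Ins2 and Gip were at 0 in each library, and Iapp had 2 to 14 counts. For Gata4 and Gata6 it was 1 of 7, the ileal bile acid transporter gene Slc10a2 (1.62 ± 0.348 CPM), and Fabp2 and Gip were at 0. The target lists do not separate genes that a factor raises from genes that it lowers. The level of a target, that of Slc10a2 included, is therefore no measure of the activity of the factor. Of 7 serotonin cell genes that go with Lmx1a, 4 were above the limit: Ddc (145 ± 27.9 CPM), Fev (43.1 ± 2.31 CPM), Tac1 (12.0 ± 1.89 CPM) and Slc18a1 (5.87 ± 0.918 CPM). Tph1, the rate-limiting enzyme of serotonin synthesis in the gut, had 0 to 4 counts, the serotonin transporter gene Slc6a4 at most 2, and Slc18a2 had 0.

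**Figure D3:**
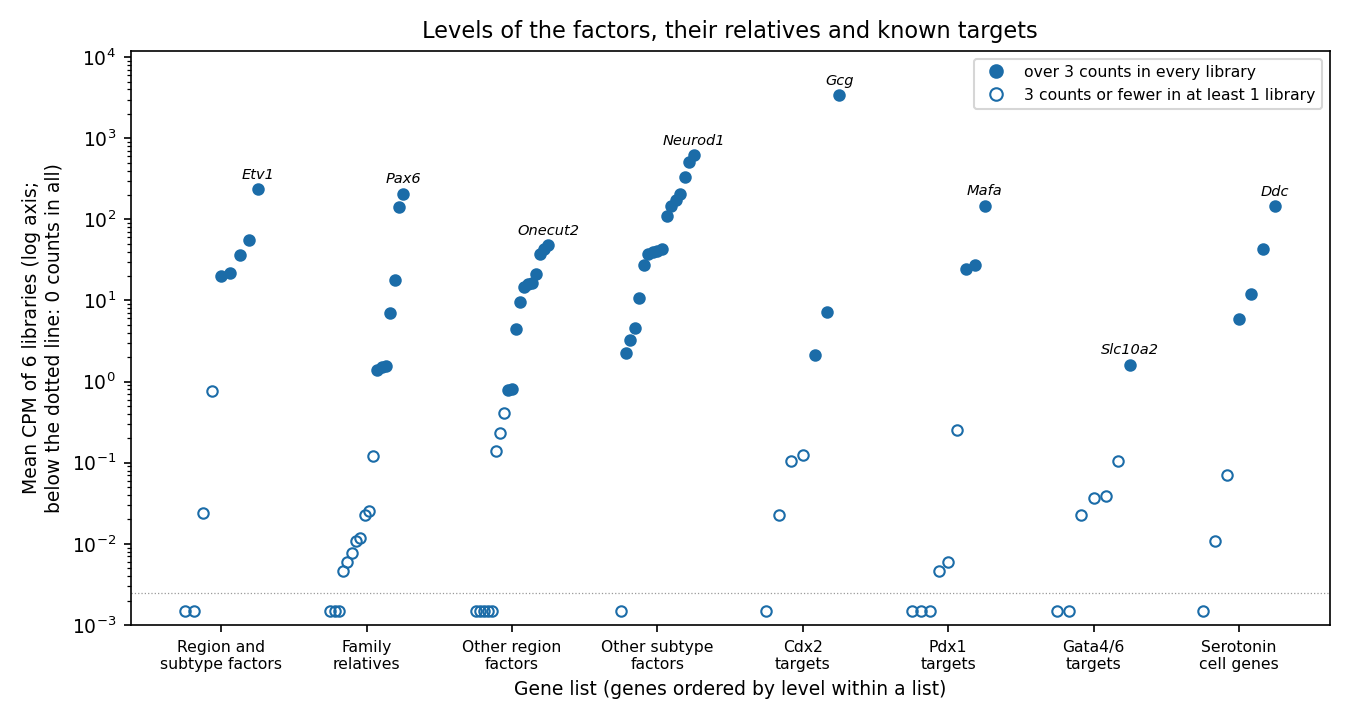
Mean CPM of 6 libraries (log axis) of each gene in the member list and 7 related lists, in order of level within a list, with filled points for genes above 3 counts in every library. Of the other enteroendocrine and islet factors 16 of 17 are filled, against 7 of 18 family relatives and 1 of 7 targets of Gata4 or Gata6.

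The plates were compared with edgeR's quasi-likelihood test on all 15669 genes that passed its filter on low counts, 6 members among them, with Benjamini-Hochberg adjustment over all of these genes. At an adjusted p under 0.05, 0.185% of all genes were called (29 genes, 2 higher and 27 lower on plate 2), and none of the 6 members, of which 1, Cdx2, had an unadjusted p under 0.05, as had 2520 of the 15669 genes. With no scaling beyond the total count the direction of the calls turned, to 1411 higher and 71 lower, while DESeq2 gave 157 higher and 427 lower. The count of genes called also rested on single libraries: it was 1911 (667 higher and 1244 lower) without the middle-total library of plate 2, 0 without replicate 1 or the lowest-total library, 2 without replicate 2, 6 without replicate 3 and 9 without the highest-total library, with 1611 to 4259 genes at an unadjusted p under 0.05. DESeq2 and limma-voom called none of the members either. The estimates for plate 2 over plate 1 were −0.26 for Cdx2 (log2, standard error 0.12, adjusted p = 0.307), −0.17 for Pdx1 (0.16, adjusted p = 0.654), −0.13 for Gata4 (0.17, adjusted p = 0.768), −0.09 for Etv1 (0.11, adjusted p = 0.741), −0.12 for Mnx1 (0.33, adjusted p = 0.907) and 0.22 for Pax4 (0.68, adjusted p = 0.916). Each edgeR standard error given here was worked back from the test, as the absolute estimate over the square root of its F statistic. The sign of the 5 negative values depended on the scaling. The fit used TMM scaling, under which the median of all genes was 0.03. With no scaling beyond the total count this median was 0.30 and all 5 values were positive, while relative to the median Cdx2 stood at −0.29 under TMM and −0.30 without it. Mnx1 was 0.17 without the middle-total library of plate 2, and Pax4 was −0.31 without it, while Pax4 was −0.28 without replicate 1 and Gata4 was 0.057 without replicate 2, each without a call. Among all list genes 1 was past the threshold: Sox4, a factor of endocrine progenitors, had 54.1, 59.9 and 44.5 CPM on plate 1 and 30.1, 24.3 and 31.2 CPM on plate 2, or −1.16 on the log2 scale by edgeR (adjusted p = 0.0339, standard error 0.16). The plates did not overlap for it, but the call was lost with limma-voom (adjusted p = 0.0639) and without any 1 of the plate 1 replicates or the plate 2 libraries with the lowest or highest total, where the estimate was between −1.04 and −1.29. The call on Sox4 was kept with DESeq2, with the other scalings and filters in edgeR, and without the middle-total library of plate 2.

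**Figure D4:**
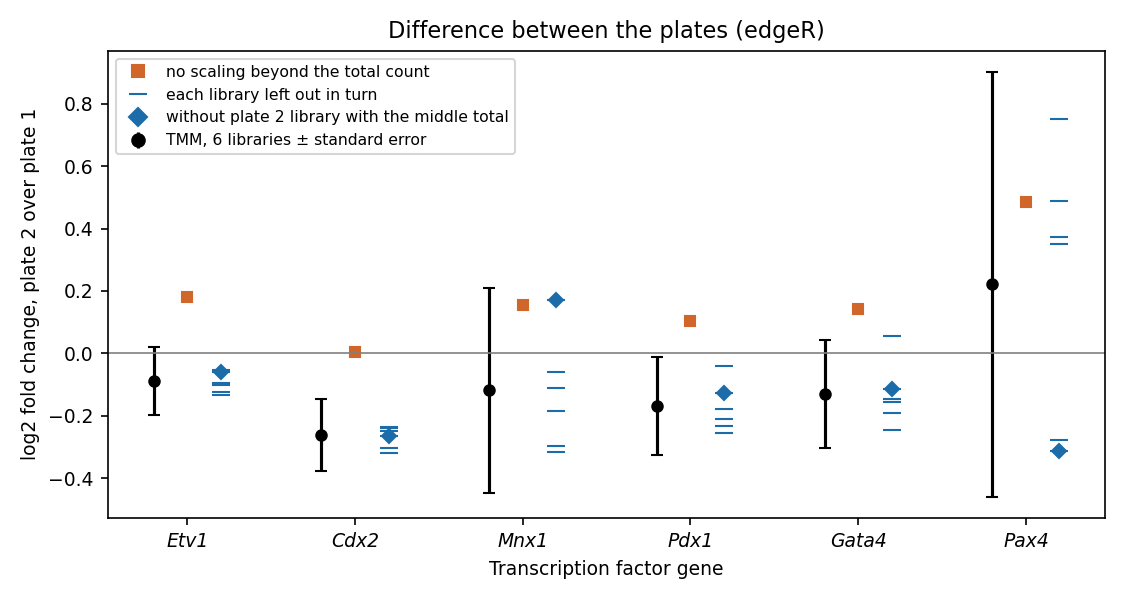
Log2 fold change of plate 2 over plate 1 from edgeR for the 6 members tested, with the standard error under TMM scaling, without scaling beyond the total, and with each library left out in turn. Under TMM scaling, estimates for Etv1, Cdx2 and Pdx1 stayed below 0 in each omission, although they were above 0 with no scaling beyond the total, those for Mnx1 and Pax4 changed sign without the middle-total library of plate 2, and no estimate passed the threshold.

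The genes whose log2(CPM + 1) followed each member most closely over the 6 libraries are given as a description with no p, since the libraries share 2 cultures, their depth and the library that stood apart. For Cdx2 these were Zfp608 (Pearson r = 0.993), 4930549G23Rik (0.984) and Tdo2 (0.978). For Pdx1 they were Gm47545 (r = 0.993), Skap1 (0.976) and Ppp1r12a (0.974), and for Gata4 Smad6 (r = 0.995), Hist1h4d (0.993) and Diaph2 (0.992). Some of these genes had low means: 0.457 CPM for 4930549G23Rik, 0.366 CPM for Gm47545, 0.383 CPM for Smad6 and 0.948 CPM for Hist1h4d. Lmbrd2 (r = 0.996), Zbtb33 (0.996) and Csnk1g3 (0.995) were closest to Etv1, and Cldnd1 (r = 0.997), Rybp (0.996) and Coro2a (0.995) to Mnx1. The number of genes at an r of at least 0.95, of 15668 compared, was 16 for Cdx2, 15 for Pdx1 and 14 for Gata4, and 242 for Etv1 and 346 for Mnx1.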

How the data were processed

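The authors made the 6 libraries from GLUTag cells, grown in 6-well dishes, with a QuantSeq 3′ mRNA-Seq FWD kit. They trimmed the reads (Trim Galore 0.6.4) and assigned them to transcripts of GRCm38 with Salmon 1.5.1 without length correction. They deposited expected counts summed per gene, with no normalization. The strand setting of the counting is not given in the sources used here. All columns of per-sample values were used.

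Expected counts were divided by the library total (CPM), and rounded for the robust quasi-likelihood test of edgeR 4.0.16 (with filterByExpr and TMM scaling), DESeq2 1.42.0 and limma-voom 3.58.1, run in R 4.3.3. The plate test was checked on simulated counts with known changes. Symbols and positions are from GENCODE M21, which held 54107 of the 54281 gene identifiers. The members and lists were chosen with earlier results of these data known. All members were named, with the 3 highest genes of each other list, any gene counted in a group of 5 or fewer and any list gene past the threshold. For each member whose own mean was at least 10 CPM, the 3 genes nearest in pattern were named, at whatever level. A few list genes are not reported here by name. Pairs of members were tested with Python 3.11.15 and scipy 1.17.1. Alternatives were other tools, scalings, filters and pseudocounts and the omission of each library. All pairs of libraries differed by more than sampling noise.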

Additional observations from a re-analysis of the deposited data

How the results depend on the processing

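The levels of the members with counts kept their order under the alternatives run. Differences among the 5 members above 3 counts throughout kept their direction with other pseudocounts and with each library omitted. With a pseudocount of 0.1 or 5 CPM these differences also kept their side of the threshold, and 31 of all 36 pairs were past it. The omission of a library leaves the differences as values with no test, and the remaining pairs were not followed 1 by 1. Omitting the middle-total library of plate 2, chosen after seeing the data for the members detected and the gene lists, left 5 members above 3 counts, and edgeR's filter on low counts kept 6, with Pax4. A limit of 1 CPM in every library moved the count of 3 lists by over 1.5 times, the family relatives to 4 genes and the enterocyte and blood cell markers to 0 each, and took the region factors and the partner proteins from 11 to 9 each. The number of genes called between plates was 584 with DESeq2, 10 with limma-voom, 1482 with no scaling beyond the total and 545 with no filter on low counts, against 29. It ranged from 0 (without replicate 1, 1611 genes at an unadjusted p under 0.05, or without the plate 2 library with the lowest total, 2121 genes) to 1911 without the middle-total library of plate 2, and the cause was not tested. Member estimates that changed sign were not past the threshold in the fits run. With no scaling beyond the total they were 0.0034 for Cdx2, 0.10 for Pdx1, 0.14 for Gata4, 0.18 for Etv1 and 0.16 for Mnx1. Over the omissions of a library, Gata4 ranged from −0.25 to 0.057 (positive without replicate 2), Pax4 from −0.31 to 0.75 (negative without replicate 1, at −0.28, or without the middle-total library of plate 2) and Mnx1 from −0.32 to 0.17 (positive without the latter). No paired analysis was possible because plate 2 holds replicates 4 to 6 by its labels, and the numbers of its columns restart within the plate and tie no library to one of plate 1. Depth limits Lmx1a, Cdx1 and Gata6, for which up to 3 counts per library would not be told from 0.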

Other observations

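Markers of other cell types were read for the same libraries, in which 58.4% of all protein-coding genes were above 3 counts throughout. Of 7 fibroblast markers 1 was above 3 counts in every library, Col1a2 at 5.87 CPM, and Col3a1 and Lum were at 0. The summed list was at 4.87 to 7.12 CPM on plate 1 and 5.44 to 7.06 CPM on plate 2. Of 7 enterocyte markers 2 passed, Alpi (0.659 CPM) and Apoa1 (0.410 CPM). Of 5 goblet and Paneth cell markers 1 passed, Tff3, a secreted trefoil peptide gene, at 37.8 ± 2.42 CPM (SD, n = 6), while the goblet mucin gene Muc2 had at most 6 counts. Of 4 tuft cell markers 2 passed, Dclk1 at 67.2 ± 5.77 CPM and Avil at 2.08 CPM, while Pou2f3, the tuft cell factor, had at most 1 count and the channel gene Trpm5 at most 6. Of 4 beta cell markers 1 passed, Mafa, and of 5 blood cell markers 1, Cd68 at 0.633 CPM.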
